A study of Homo sapiens with 6 samples.

Results

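TCL1A, TCL1B, TCL6 and MTCP1 are grouped here as the TCL1 family, although TCL6 is a noncoding gene that lies beside TCL1B and TCL1A. The 4 genes are counted as the array probe sets whose platform annotation gives 1 of these 4 symbols and no other. They are 4 of 19775 genes named by such probe sets and hold 10 of the 54675 probe sets measured, 2 for TCL1A, 1 for TCL1B, 6 for TCL6 and 1 for MTCP1. The arrays were Affymetrix U133 Plus arrays of 3 Burkitt lymphoma lines, Namalwa, Raji and Ramos, with 1 array of each line in the group empty and 1 in the group miR26a, the names that the labels give. The cells carried an introduced construct, and all 6 samples are listed with 72 h of doxycycline (0.5 µg/ml), the agent that switches on the microRNA; what the empty construct holds is not given in the sources used here. The labels name no clone and no second culture of a line in either group, so p-values measure only the spread between these samples, which may be technical. With so few arrays, precision is limited by their number. The family was selected on signal differences between the lines that were already known, above all for TCL1B in Namalwa, so levels by line are described and not tested. The comparison of miR26a with empty was not used to pick it and was tested.

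TCL1A, TCL1B and MTCP1 encode small proteins of one fold that bind the kinase AKT and help to activate it, which favours survival and growth of lymphocytes. TCL1A is normally on in B-cell precursors, naive B cells and, at a lower level, germinal centre B cells, and off in memory B cells and plasma cells. Chromosome rearrangements that place TCL1A or MTCP1 beside a T-cell receptor locus occur in T-cell prolymphocytic leukaemia. TCL6 is a gene of long noncoding RNAs that lies beside TCL1B and TCL1A on chromosome 14, while MTCP1 lies on the X chromosome and shares its promoter with CMC4, which encodes an unrelated small mitochondrial protein. MiR-26a is a microRNA whose seed, bases 2 to 8 in capitals here, pairs with target transcripts. It is the induced agent of the miR26a group.
miR-26a-5p: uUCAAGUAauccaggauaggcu

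Because TCL1A and TCL1B are neighbours whose levels differed in another order across the lines, the 250 bases before their start sites are shown, with those of MTCP1 beside them (RefSeq, GRCh38.p14, each read 5′ to 3′ on its own strand). Capitals mark matches on either strand to 4 motifs, none of which overlapped another match here. The TATA box was searched as TATAAA. The GC box, a site of Sp1-type factors, was searched as GGGCGG. The E-box of MYC was searched as CACGTG. The CREB site, in its shorter form, was searched as TGACG.
TCL1A, chr14:95714126-95714375, strand minus: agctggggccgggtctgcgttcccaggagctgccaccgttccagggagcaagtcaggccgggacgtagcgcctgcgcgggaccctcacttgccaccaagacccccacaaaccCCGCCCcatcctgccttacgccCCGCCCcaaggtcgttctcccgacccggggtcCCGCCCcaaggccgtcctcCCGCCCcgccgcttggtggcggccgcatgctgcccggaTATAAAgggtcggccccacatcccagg
TCL1B, chr14:95686176-95686425, strand plus: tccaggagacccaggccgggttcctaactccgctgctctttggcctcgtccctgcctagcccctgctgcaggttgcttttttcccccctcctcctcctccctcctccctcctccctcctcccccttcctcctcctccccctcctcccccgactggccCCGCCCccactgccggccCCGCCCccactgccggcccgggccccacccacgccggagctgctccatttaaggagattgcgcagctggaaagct
MTCP1 and CMC4, chrX:155071137-155071386, strand minus: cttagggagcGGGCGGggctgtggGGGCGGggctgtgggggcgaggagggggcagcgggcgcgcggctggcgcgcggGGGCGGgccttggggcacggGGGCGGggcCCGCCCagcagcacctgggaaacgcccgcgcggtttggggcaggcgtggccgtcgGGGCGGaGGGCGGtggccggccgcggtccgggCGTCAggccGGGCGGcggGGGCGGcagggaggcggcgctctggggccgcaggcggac
The TCL1A window held a TATAAA at -27 to -22 from the start and 4 GC boxes. The TCL1B window held 2 GC boxes and no TATAAA. The MTCP1 window, identical to that of CMC4, held 9 GC boxes and 1 CREB site, and none of the 3 windows held CACGTG. Over 35116 promoters of the same length, 10.7% held TATAAA, 42.6% GGGCGG, 6.34% CACGTG and 21.2% TGACG. The base content also differed: G and C made up 71.6% of the TCL1A window, 69.6% of TCL1B and 84.4% of MTCP1, against 31.6% of the TCL6 window and a median of 58% over all promoters. A match is a run of letters and was not measured as a bound site.

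Values are log2 RMA signals, in which 1 unit is a 2-fold difference, and levels were compared only within a probe set. Tests were limited to probe sets whose mean over the arrays reached 4.42, the middle of the signals once array controls were set aside, and 6 of the 10 did. These were both of TCL1A, that of TCL1B, 2 of TCL6 (mean 4.76 and 4.48) and that of MTCP1 (mean 4.45). The other 4 were TCL6 probe sets, the brightest of them with a mean of 3.91. Array medians were 4.36 to 4.44. The Namalwa empty array stood apart in a sign of RNA quality, where the 3′ control for ACTB exceeded the 5′ control by 3.58; for the 5 remaining arrays this gap was 1.80 to 1.98. The cells carried their defining B-cell markers: all 9 measured were above the level minimum on every array, while 6 of 9 T-cell, 5 of 6 monocyte and 3 of 6 fibroblast markers were below it on every array.

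TCL1A was measured at a high signal in Ramos and Namalwa and a lower one in Raji, with the empty and miR26a arrays of a line close together. By its brighter probe set, 209995_s_at, the log2 level was 12.07 in Ramos empty and 12.09 in Ramos miR26a, 11.04 in Namalwa empty and 11.20 in Namalwa miR26a, and 8.01 in Raji empty and 7.75 in Raji miR26a. The 3 lines did not overlap, in the order Ramos, Namalwa, Raji. Line means were 12.08 ± 0.01 (SD, n = 2) in Ramos, 11.12 ± 0.11 (SD, n = 2) in Namalwa and 7.88 ± 0.18 (SD, n = 2) in Raji, which puts Ramos 1.94-fold above Namalwa and 18.4-fold above Raji. The other probe set, 39318_at, kept that order, with 11.76 and 11.89 in Ramos, 10.91 and 10.89 in Namalwa, and 7.50 and 7.35 in Raji, the empty array first. It put Ramos 1.90-fold above Namalwa and 21.2-fold above Raji. Raji was thus lowest by both probe sets, yet its signal of 7.35 to 8.01 lay above the level minimum on both arrays. In bulk RNA, fewer cells that express a gene and less of its RNA per cell cannot be told apart.

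TCL1B, the neighbouring gene with a protein of the same fold, followed another order. Its probe set 206413_s_at was at 9.60 in Namalwa empty and 9.43 in Namalwa miR26a, at 5.62 and 5.68 in Ramos empty and miR26a, and at 5.20 and 5.35 in Raji empty and miR26a. Namalwa stood alone at the top and the other two lines lay near each other. The mean of Namalwa, 9.51 ± 0.12 (SD, n = 2), was 14.6-fold above Ramos (5.65 ± 0.04, SD, n = 2) and 18.9-fold above Raji (5.27 ± 0.11, SD, n = 2). Ramos exceeded Raji by 1.30-fold, a difference of 0.37 log2, and their arrays did not overlap. So in Ramos, the line with the most TCL1A, the TCL1B signal lay 3.87 log2 below Namalwa, while TCL1A lay 0.96 log2 above it by 209995_s_at. The Namalwa value did not rest on the array with the larger ACTB difference: with single arrays left out in turn, Namalwa minus Ramos was 3.78 to 3.95 and Namalwa minus Raji 4.16 to 4.32.

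**Figure D1:**
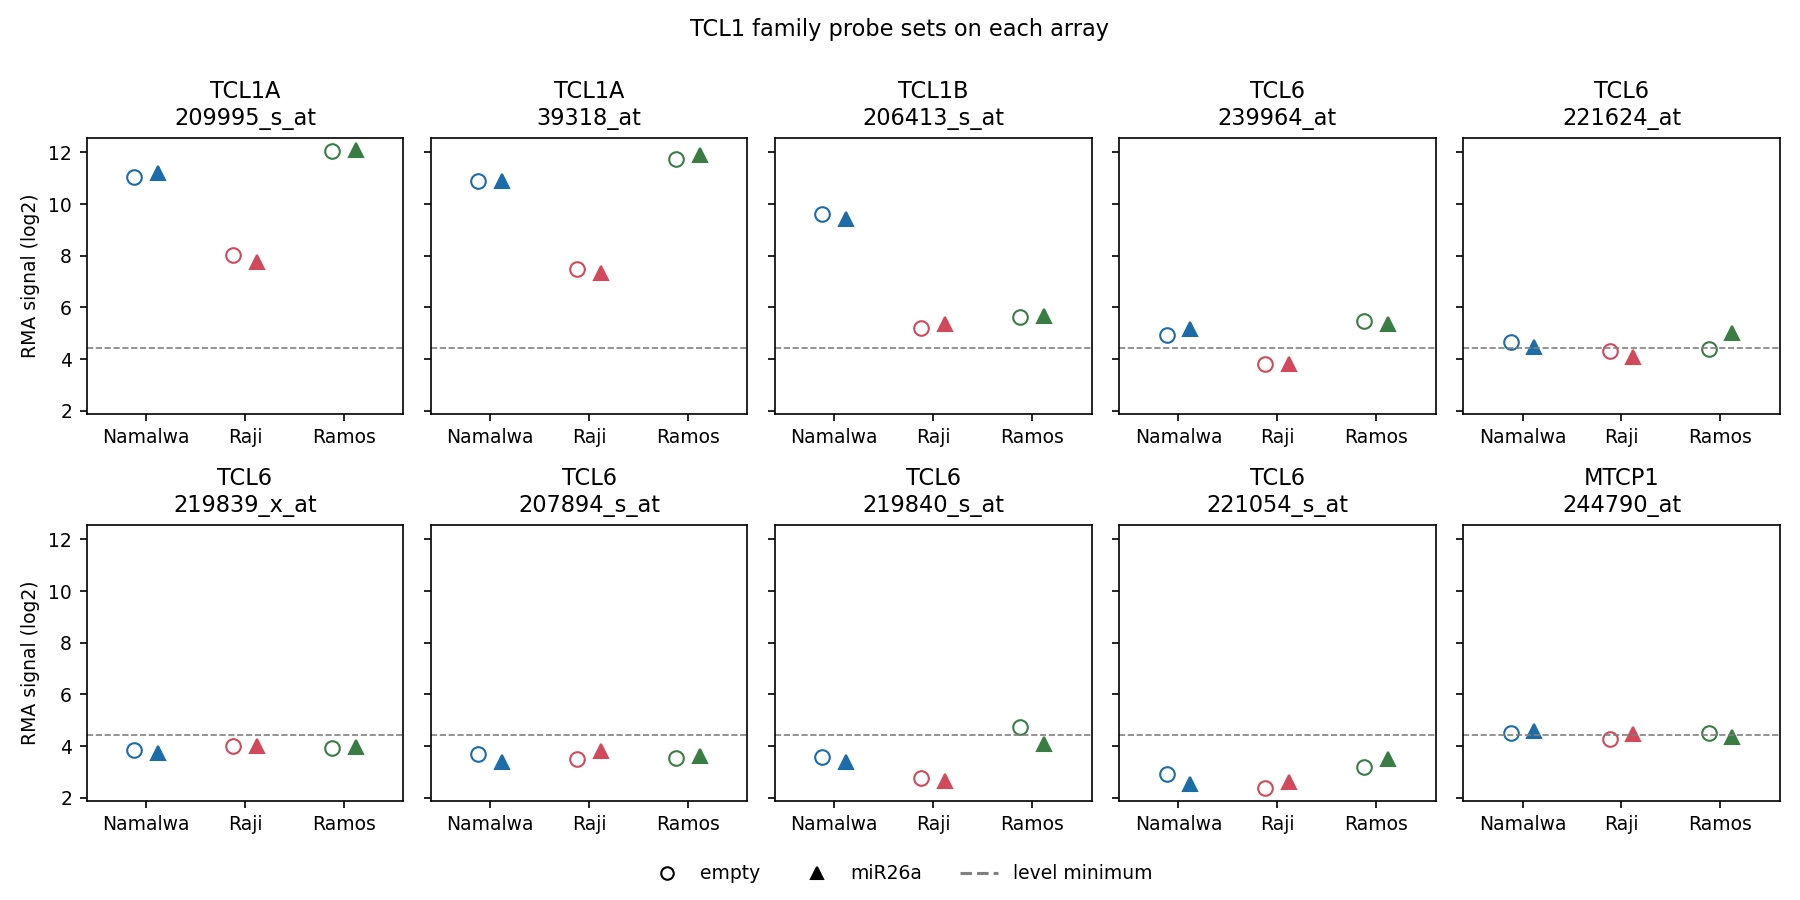
Log2 RMA signal of the 10 TCL1 family probe sets on each of the 6 arrays, with 1 panel per probe set, open circles for empty and filled triangles for miR26a; the dashed line is the level minimum of 4.42. TCL1A is lowest in Raji, TCL1B stands out in Namalwa, 239964_at of TCL6 follows the order of TCL1A at a lower signal, and the remaining panels lie near or below the dashed line.

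TCL6, the noncoding gene of the cluster, gave signals near background, and its 6 probe sets did not all show 1 pattern. The brightest, 239964_at, was at 5.49 and 5.36 in Ramos, 4.93 and 5.15 in Namalwa, and 3.80 and 3.81 in Raji, the empty array first. It had the order of TCL1A, with Ramos 1.31-fold above Namalwa and 3.08-fold above Raji, but both Raji arrays lay below the level minimum, so the last ratio sets a signal against background. The probe set 219840_s_at had the same order at a lower signal: 4.72 and 4.07 in Ramos, 3.58 and 3.37 in Namalwa, and 2.76 and 2.63 in Raji. Only its Ramos empty array exceeded the level minimum. Ramos was also the highest line for 221054_s_at, at 3.19 and 3.49, with Namalwa and Raji overlapping between 2.37 and 2.92. For 221624_at, Namalwa (4.65 and 4.47) and Ramos (4.37 and 5.02) overlapped and Raji was lower at 4.30 and 4.08. The 2 remaining probe sets were flat, with a range over the 6 arrays of 0.29 for 219839_x_at and 0.41 for 207894_s_at. Averaged over the 6 probe sets, Raji minus Ramos was -0.75 in place of -1.62 for the brightest alone, and Namalwa minus Raji 0.38 in place of 1.23.

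MTCP1 was flat and dim. Its probe set 244790_at was at 4.49 and 4.57 in Namalwa, 4.29 and 4.47 in Raji and 4.49 and 4.36 in Ramos, the empty array first, a range of 0.29. Raji and Ramos overlapped, as did Namalwa and Ramos, and with an array left out Raji minus Ramos ran from -0.14 to 0.04. A further probe set, 205106_at, lists both CMC4 and MTCP1 and so belongs to neither gene alone; it was at 4.49 to 4.85 on all 6 arrays. The 2 probe sets annotated to CMC4 alone were brighter and highest in Raji, at 7.41 to 7.72 there against 6.68 to 7.02 in the other lines. Transcripts of the 2 genes begin at the same promoter, so these probe sets were kept apart from MTCP1.

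Among the 6 probe sets above the level minimum, 4 had no overlap between any 2 lines, while 31.7% of all 27307 probe sets at that level did not overlap. Both Raji arrays were below the 4 others for 5 of the 6, where the share over all probe sets was 27.8%. Both Ramos arrays were above the rest for 3 of the 6 (16.0% of all) and both Namalwa arrays for 1, TCL1B (10.3% of all). The members were picked for such differences, so nothing is read from these counts. Across the 6 arrays, which fall in 3 pairs of the same line, 209995_s_at correlated with the other TCL1A probe set at r = 1.00, with 239964_at of TCL6 at r = 1.00, with 219840_s_at at r = 0.90, with TCL1B at r = 0.37 and with MTCP1 at r = 0.38. TCL1B and 239964_at correlated at r = 0.36.

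The members did not move together with miR26a. None of the 6 tested probe sets passed (limma, line as a block, adjusted p from 0.892 to 0.983), and 0 had an unadjusted p under 0.05. Over all probe sets tested, 0.00366% passed, that is 1 of 27307, a probe set shared by several histone H3 genes that was higher by 1.46 (SE 0.13, limma adjusted p = 0.0420). At an unadjusted p under 0.05 there were 12.3%. For TCL1A, the empty arrays had a mean of 10.37 ± 2.11 (SD, n = 3) by 209995_s_at and the miR26a arrays 10.34 ± 2.29 (SD, n = 3), where each group holds the 3 lines. Its change in Namalwa was 0.16, with -0.26 for Raji and 0.02 for Ramos, with a mean of -0.03 (SE 0.12, 95% interval -0.30 to 0.24). The second TCL1A probe set changed by -0.01, -0.15 and 0.13 in the same lines, a mean of -0.01 (SE 0.11, 95% interval -0.27 to 0.24).

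TCL1B changed by -0.17, 0.15 and 0.06 in Namalwa, Raji and Ramos, with a mean of 0.02 (SE 0.12, 95% interval -0.25 to 0.28). For TCL6, 239964_at had a mean change of 0.03 (SE 0.12) and 221624_at one of 0.08 (SE 0.17, 95% interval -0.30 to 0.47). The latter changed by -0.18 and -0.22 in Namalwa and Raji but by 0.65 in Ramos, so its mean rests on the Ramos pair, and without Ramos it was -0.20. MTCP1 changed by 0.08, 0.19 and -0.13 in Namalwa, Raji and Ramos, a mean of 0.05 (SE 0.12, 95% interval -0.21 to 0.31). The probe set shared by CMC4 and MTCP1, 205106_at, changed by -0.29, -0.10 and -0.22 in the same lines. For CMC4 alone, 210212_x_at changed by -0.18, -0.15 and -0.09, and 216862_s_at by 0.06, -0.13 and 0.12. None of these passed. None of the 6 tested member probe sets moved the same way in all 3 lines, against 34.0% of all probe sets tested. Below the level minimum, 219840_s_at of TCL6 was the 1 probe set of the 10 lower with miR26a in every line (16.1% of all tested probe sets were), at -0.21, -0.13 and -0.64; with no level minimum its mean of -0.33 (SE 0.13) missed the threshold, with a limma adjusted p of 0.457 and an unadjusted one of 0.0288. Flipping signs over the 3 lines, an exact test run two-sided, gave it p = 0.25, the smallest p that 3 pairs allow, and the other members p from 0.750 to 1.00. The intervals of TCL1A and TCL1B leave room for a fall of up to 0.30 log2 and a rise of up to 0.28.

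**Figure D2:**
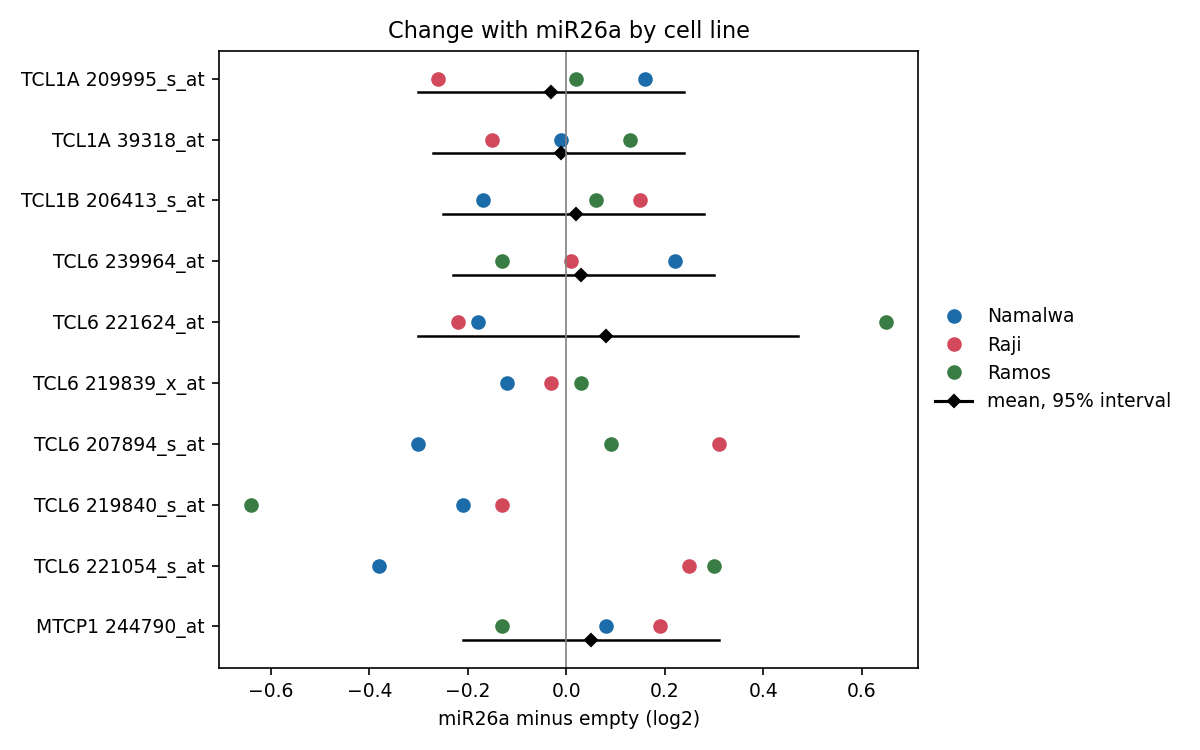
Change of each TCL1 family probe set with miR26a, as miR26a minus empty on the log2 scale; coloured points are the 3 lines, black diamonds and bars the mean and 95% interval of the limma fit for the 6 tested probe sets. Every interval includes 0, and the points of the tested probe sets lie on both sides of it.

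The genes around the TCL1 cluster were set beside it, since TCL6, TCL1B and TCL1A lie in a row. Of the 6 named loci with a probe set on each side, 5 of 12 were above the level minimum. Of these 5, 4 were higher in Namalwa than in Raji and 4 lower in Raji than in Ramos (limma, adjusted p under 0.05), where 23.2% and 25.7% of all probe sets were called in those directions. Between Namalwa and Ramos 0 of the 5 passed, 2 of them had an unadjusted p under 0.05, and of all probe sets 5.69% were higher and 5.64% lower, 11.3% together. For the pairs with Raji, the calls in either direction made up 41.3% (with Namalwa) and 46.0% (with Ramos). CLMN, which encodes calmin, had means of 6.19, 3.43 and 6.80 in Namalwa, Raji and Ramos, and both Raji arrays lay below the level minimum. GSKIP, an anchor for the kinase GSK3, was at 8.85, 7.52 and 8.56, and the autophagy gene ATG2B at 8.57, 7.69 and 8.31. C14orf132 was at 5.19, 4.06 and 4.79, and both its Raji arrays, at 4.28 and 3.84, lay below the level minimum. GLRX5, a glutaredoxin of iron-sulphur cluster assembly and the brightest neighbour, was at 10.91, 10.55 and 10.73 and did not pass in any pair (limma adjusted p from 0.0863 to 0.513). Namalwa minus Ramos lay between -0.61 (CLMN) and 0.40 (C14orf132) for the tested neighbours, against 3.87 for TCL1B and -0.96 for TCL1A. Around MTCP1, 7 of 12 neighbours were tested and 5 were higher in Namalwa than in Raji. They were TMLHE, GAB3, MPP1, FUNDC2 and BRCC3, and both Raji arrays of TMLHE and GAB3 lay below the level minimum. Raji was below Ramos for 3 of them, and 1, FUNDC2, was higher in Namalwa than in Ramos, by 2.65-fold. The level minimum left out RAB39B, at 5.44 and 4.59 in Raji and 2.22 to 2.45 in the other lines. With no level minimum, 5 of the 12 neighbours of MTCP1 were higher and 2 lower in Namalwa than in Raji. Between Raji and Ramos, 1 was then higher and 3 lower in Raji. With no pooled variance 0 neighbours of either locus passed in any pair. With miR26a, no neighbour of either locus passed: 12 were tested, changes ran from -0.38 to 0.18 and the smallest limma adjusted p was 0.383.

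**Figure D3:**
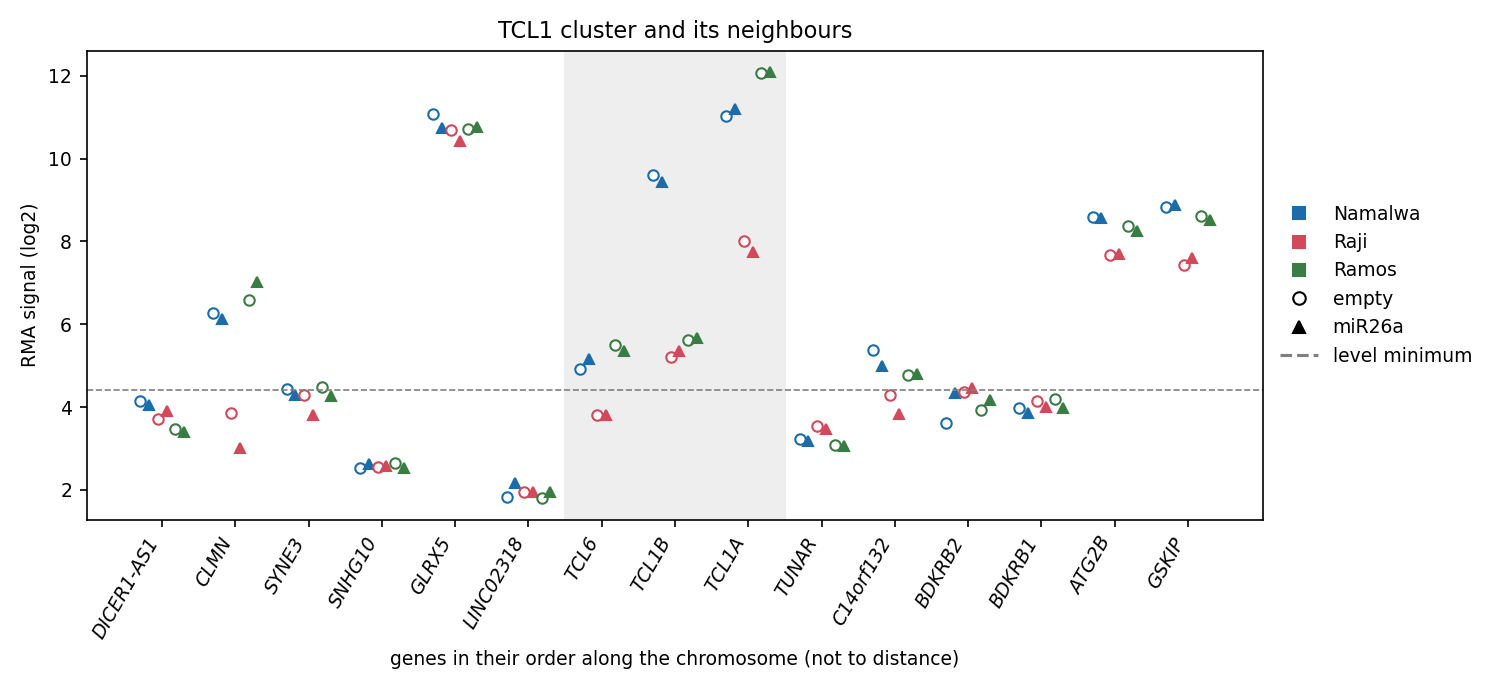
Log2 RMA signal on the 6 arrays for TCL6, TCL1B and TCL1A (shaded, brightest probe set of each) and 6 named neighbours with a probe set on either side, in their order along the chromosome and not to distance. Raji is below the other lines for TCL1A, TCL1B, TCL6, CLMN, C14orf132, ATG2B, GSKIP and GLRX5, and Namalwa stands alone at the top for TCL1B.

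The pathway that the TCL1 proteins act on was followed through lists of genes. Of 17 tested genes that carry or promote AKT signals, 2 were higher and 7 lower in Namalwa than in Raji (limma, adjusted p under 0.05; 23.2% and 18.1% of all probe sets), and 6 were higher and 2 lower in Raji than in Ramos (20.3% and 25.7% of all). The lower ones in Namalwa were the lipid kinase subunits PIK3CD and PIK3CB, AKT1 itself, MLST8 of the mTOR complexes, cyclin D3 (CCND3) and the survival factors MCL1 and BCL2L1. PIK3CD differed between Namalwa and Raji by -0.98 and AKT1 by -0.42, and AKT2 was at 0.21 and did not pass. AKT1 and PIK3CB passed narrowly (limma adjusted p = 0.0451 and 0.0422). With the group term left out or with no level minimum, 5 genes were lower in Namalwa in place of 7. The 2 higher ones were RPS6KB1, a kinase that drives protein synthesis, by 1.09, and RICTOR of mTOR complex 2, by 0.50. Between Namalwa and Ramos 1 of the 17 passed, the regulatory subunit PIK3R1, lower in Namalwa by 1.85-fold, and 0 passed without the Ramos empty array. Median differences of the list were -0.01, 0.07 and 0.19 for Namalwa minus Raji, Namalwa minus Ramos and Raji minus Ramos, against -0.02, -0.01 and 0.00 over all probe sets. Calls in this and the next 3 lists rest on limma's pooled variance: with no pooling 0 to 1 gene per list passed between Namalwa and Raji, 0 between Namalwa and Ramos, and 1 to 3 between Raji and Ramos.

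Of 19 tested inhibitors and substrates of AKT signalling, 4 were higher and 6 lower in Namalwa than in Raji (41.3% of all probe sets were called in either direction), and 6 higher and 5 lower in Raji than in Ramos (46.0% of all). The death agonists BCL2L11 and BAD were lower in Namalwa than in Raji by 5.91-fold and 3.25-fold, the mTOR inhibitor DEPTOR by 3.11-fold and the cell cycle inhibitor CDKN1B by 2.98-fold. TRIB3, PPP2R5C and PIK3IP1 went the other way, higher in Namalwa than in Raji by 0.83, 0.78 and 0.50 log2. EIF4EBP1, the translation repressor that mTOR inactivates, was also higher, with means of 7.88, 5.02 and 8.87 in Namalwa, Raji and Ramos. It was lower in Namalwa than in Ramos by 1.98-fold, as was BCL2L11 by 1.86-fold, while DEPTOR was higher by 1.49-fold; these were the 3 of the 19 to pass in that pair, and 0 passed without the Ramos miR26a array. With miR26a, 0 of the 17 and 0 of the 19 passed with limma, and 1 and 2 had an unadjusted p under 0.05.

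Of 13 tested genes whose proteins are reported to bind TCL1A, 4 were higher and 4 lower in Namalwa than in Raji (23.2% and 18.1% of all probe sets); this list shares AKT1 and AKT2 with the first. Higher were the DNA methyltransferases DNMT3A (means of 5.96 and 4.02, the latter under the level minimum on each Raji array) and DNMT3B (1.81-fold) and the coactivators CREBBP and EP300, and lower were NFKBIA, AKT1, JUN and JUNB. Only DNMT3B and NFKBIA passed between Namalwa and Ramos, both higher in Namalwa, by 0.72 and 0.58 log2; 0 passed without the Namalwa empty array or without either Ramos array, and 1 without the Namalwa miR26a array. With miR26a 0 of the 13 passed and 2 had an unadjusted p under 0.05.

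Factors that regulate TCL1A or mark the B-cell stages at which it is on or off formed the last list, together with DICER1. Of 15 tested, 10 were higher and 2 lower in Namalwa than in Raji (23.2% and 18.1% of all probe sets), and 1 was higher and 10 lower in Raji than in Ramos (20.3% and 25.7% of all), a count of 11 that was 7 without either Ramos array. BACH2, which holds back plasma cell fate, had means of 8.01, 4.35 and 8.92 in Namalwa, Raji and Ramos, with the Raji empty array at 4.25, below the level minimum, and Raji miR26a at 4.45. CRTC3, a coactivator of CREB, was lower in Raji than in Namalwa by 12.5-fold. Its Raji empty array was at 4.36, below the level minimum, and Raji miR26a at 5.24. IRF4 was at 7.01, 4.85 and 7.16. DICER1, which lies near the TCL1 cluster, was at 11.69, 9.66 and 11.54 and is among the 10 genes lower in Raji in each pair. CREB1 itself differed by 0.30 between Namalwa and Raji and its other coactivator CRTC2 by 0.24, and neither passed in that pair. The 2 genes higher in Raji than in Namalwa were BCL6, the master regulator of germinal centre cells, by 2.79-fold, and EBF1 by 1.60-fold. Between Namalwa and Ramos 2 passed, BACH2 and ID3, both lower in Namalwa by 1.89-fold and 1.92-fold, and 0 passed without the Ramos empty array. With miR26a 0 of the 15 passed, and 0 had an unadjusted p under 0.05.

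**Figure D4:**
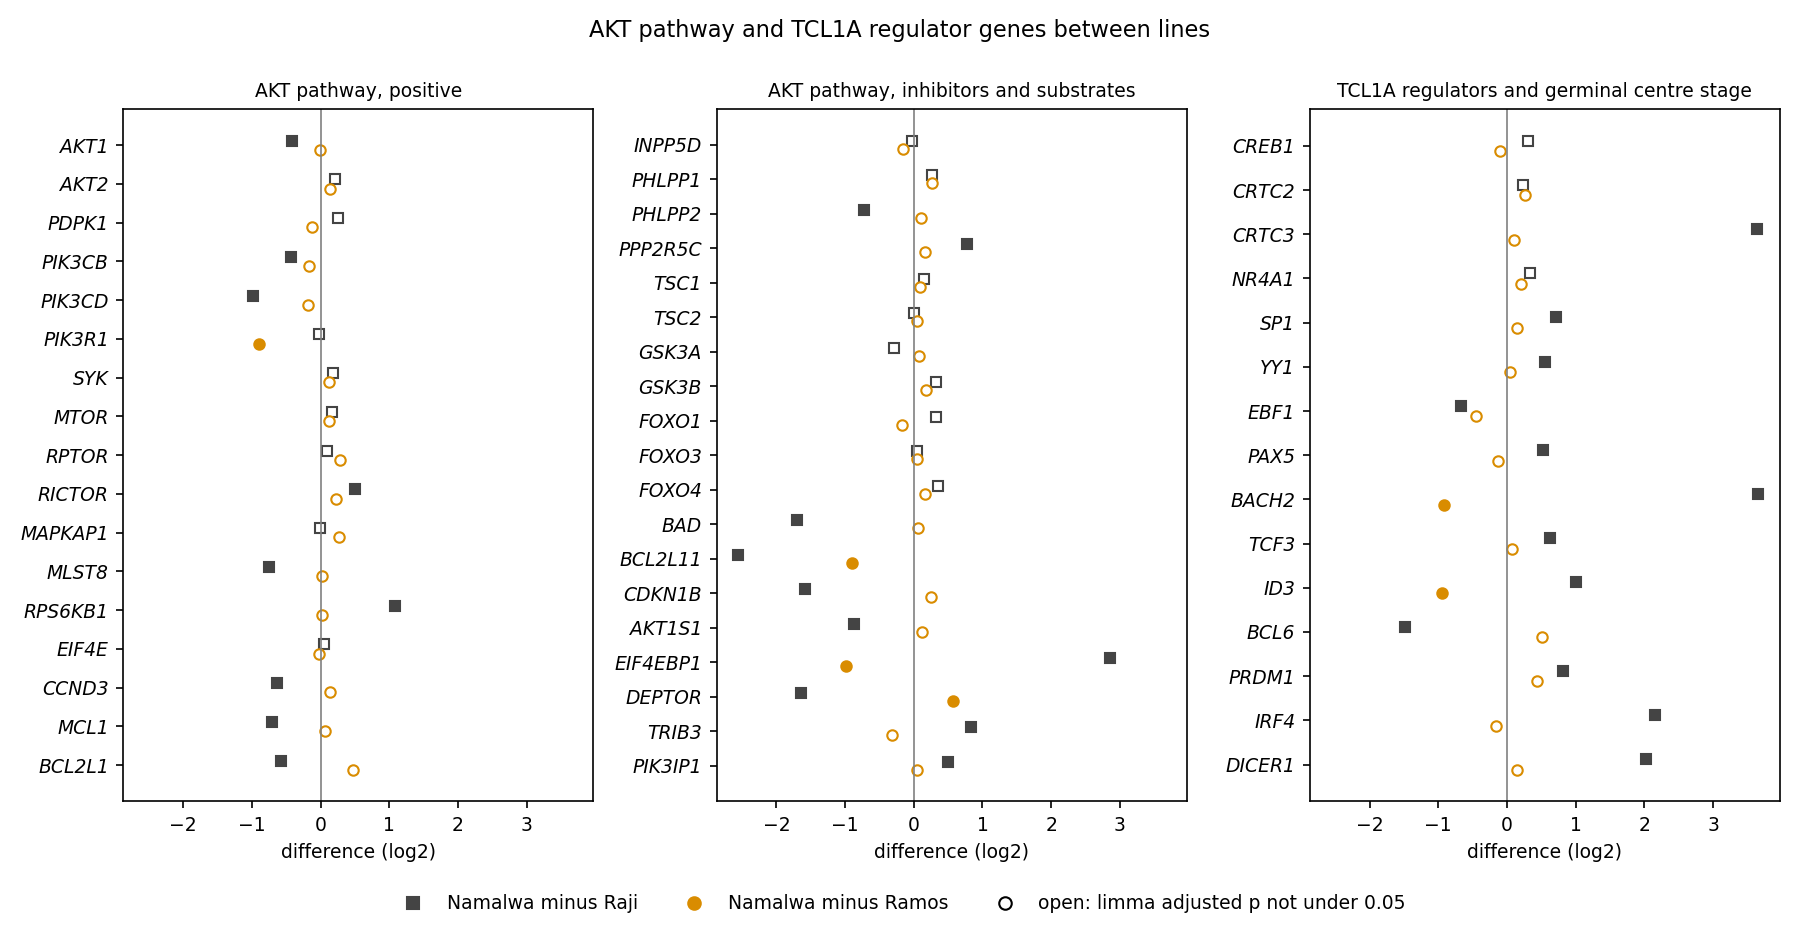
Differences between lines on the log2 scale for the tested genes of 3 lists, with squares for Namalwa minus Raji and circles for Namalwa minus Ramos; filled symbols passed at a limma adjusted p under 0.05 and open ones did not. Most filled symbols are squares, and the largest differences are BACH2, CRTC3, EIF4EBP1 and BCL2L11 between Namalwa and Raji.

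Stage markers differed between the lines too, and their part in the levels of the members was not tested. All 10 tested germinal centre markers differed between Namalwa and Raji, 3 higher and 7 lower in Namalwa, and all 10 also separated Raji from Ramos, with 7 at the higher level in Raji (41.3% and 46.0% of all probe sets were called). Between Namalwa and Ramos 3 were higher in Namalwa (5.69% of all), and 0 passed without either Ramos array; with no pooled variance 0 passed in any pair. CD38, MME and GCSAM were higher in Namalwa, and SERPINA9 and LMO2 were lower by 9.60-fold and 7.59-fold. Of 6 tested plasma cell markers, 4 were higher in Namalwa than in Raji and 1 lower (23.2% and 18.1% of all probe sets). Between Raji and Ramos, 1 was higher in Raji and 4 lower (20.3% and 25.7% of all). Only TNFRSF17 was higher in Namalwa than in Ramos (5.69% of all). With the group term left out or with no level minimum, 0 were lower in Namalwa than in Raji. In both settings 0 passed between Namalwa and Ramos. The mean level of the 9 B-cell markers ranged from 8.54 to 9.51 over the arrays and was highest in Raji, but single markers went both ways. By limma adjusted p under 0.05, 2 were higher and 3 lower in Namalwa than in Raji (23.2% and 18.1% of all probe sets). In Raji, 4 were higher and 2 lower than in Ramos (20.3% and 25.7% of all). MS4A1 and CD22 were higher in Raji than in both other lines, and PAX5 and BLK were lower.

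For the 3 members with a range of at least 1 log2, the genes of most similar pattern were taken as those with the highest Pearson r over the 6 arrays among 3428 other genes of that range. For TCL1A these were EIF4EBP1 (r = 0.9993), TET2 (0.9992), SLC16A10 (0.9981), NT5C3B (0.9978) and ZNF416 (0.9976). For TCL1B they were PLEKHO1 (r = 0.9983), KLHL15 (0.9975), VPS50 (0.9901), TFCP2 (0.9887) and CACNA1A (0.9883), and for TCL6 ZNF416 (r = 0.9981), TIPARP (0.9979), BACH2 (0.9960), ATF5 (0.9958) and CHASERR (0.9958). With 3 lines of 2 arrays each such values are easily high: 1041 genes, or 30.4%, had r over 0.9 with TCL1A, and 1005, or 29.3%, with TCL6. With TCL1B the number was 102, or 2.98%. By Spearman rank correlation, 62, 73 and 48 genes shared the highest rho of 1.00 with TCL1A, TCL1B and TCL6. Of the 5 genes named for each, 2, 0 and 2 were among them. The names depend on 1 array: without the Namalwa empty array 3 of the 5 genes were still among the top 5 for TCL1A, 2 for TCL1B and 1 for TCL6.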

How the data were processed

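One array was run for total RNA of each of the 6 samples. The authors deposited log2 signals that they had normalised by RMA in BRB Array Tools, per the labels, which gives all arrays the same distribution of probe signals after background correction. GCOS is also named in the submitters' processing notes, and versions are not given in the sources used here. A shift of all RNAs one way would therefore not be visible. These values were used as they stand, and no detection calls were used.

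The platform annotation gave 1 symbol for 41091 probe sets, several for 1801 and none for 11721, apart from 62 controls; 41037 symbols were matched through Entrez IDs with RefSeq GRCh38.p14, used for names, gene order and promoters. limma (3.58.1, R 4.3.3) was fitted to all 27307 probe sets with a mean of at least 4.42, with terms for line and group, for miR26a minus empty and for the 3 pairs of lines. Adjusted p-values are Benjamini-Hochberg values over all of these, called under 0.05. The line pairs the arrays: deviations from the group means correlated at 0.811, 0.937 and 0.894 for Namalwa, Raji and Ramos. List genes were represented by their brightest probe set, and the genes named are those past the threshold with the largest differences, the genes listed first, and others chosen after their values were seen. The shares beside the list counts are over all 27307 probe sets, which is an unlike set. With the brightest probe set per gene, 2805 of 12012 were higher and 2738 lower in Namalwa than in Raji. For Namalwa against Ramos these were 972 and 789, and for Raji against Ramos 3133 and 2935. The fit was tested on simulated data. The members, lists and tests were chosen with earlier results of these data known. Some genes of the lists were not analysed here.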

Additional observations from a re-analysis of the deposited data

Results flagged for a closer look

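All 6 tested probe sets of the family are given here because the miR26a arrays moved up in at least 1 line and down in another, with 1 pair per line, so that the difference between lines was not tested. The gap between the highest and the lowest line was 0.42 log2 for TCL1A 209995_s_at, 0.28 for TCL1A 39318_at, 0.32 for TCL1B, 0.35 for TCL6 239964_at and 0.32 for MTCP1. For TCL6 221624_at it was 0.87, with Ramos on 1 side and Namalwa and Raji on the other.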

How the results depend on the processing

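None of the 6 tested members passed under any alternative run: over 109 values the smallest adjusted p was 0.659 and the largest change 0.24 in size. The direction of these small changes was not stable when lines or arrays were left out: TCL1A ran from -0.12 to 0.09 (209995_s_at) and -0.08 to 0.06 (39318_at), TCL1B from -0.05 to 0.11, TCL6 from -0.06 to 0.12 (239964_at) and -0.20 to 0.24 (221624_at), and MTCP1 from -0.02 to 0.13. Of 78 line differences of the brightest probe sets, 76 moved by less than the spread between arrays and 76 kept their sign, the exceptions being Raji minus Ramos for MTCP1; the 2 that moved were the TCL6 averages given above.

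The count of probe sets passing for miR26a, 1, was 0 with no replicate block, with a random block, with quantile normalization again, at the 75th percentile minimum, with the brightest probe set per gene and with no moderation, 5 with a robust prior that follows intensity, and 0 to 1 with lines or arrays left out. Between lines, the main counts were 11281 (Namalwa and Raji), 3094 (Namalwa and Ramos) and 12553 (Raji and Ramos). Fewer probe sets tested gave 7474 and 7923 for the pairs with Raji at the 75th percentile minimum, and 5543, 1761 and 6068 with the brightest probe set per gene. No moderation gave 252, 0 and 788, for which the cause was not tested, and it left 0 or 1 call in each list between Namalwa and Raji, 0 between Namalwa and Ramos and 0 to 3 between Raji and Ramos, and 0 among the neighbours; an adjusted p under 0.1 gave 4728 for Namalwa and Ramos. With single arrays left out the counts were 8187 to 10278, 729 (without Ramos empty; 852 without Ramos miR26a) to 3653 and 7690 to 13747. With the group term left out, these were 9942, 2097 and 11202. Signals near 4.42 limit TCL6 and MTCP1. The alternatives for the neighbour counts were added after seeing the data: with arrays left out, 4 cluster neighbours stayed called between Namalwa and Raji in number, and 3 to 4 between Raji and Ramos, while at the 75th percentile minimum 2 of 3 tested were called in both pairs, and for MTCP1 2 of 3 and 0 of 3.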
